A study of Homo sapiens with 12 samples.

Results

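MDA-MB468 is a human cell line from a basal-like triple-negative breast cancer, a tumour class defined by the absence of estrogen receptor, progesterone receptor and amplified HER2. The cells were exposed for 24 hours to vehicle or to GSK805 at 2.5 µM, a small-molecule antagonist of the nuclear receptor RORγ. RNA was sequenced from 1 library of each condition, and these 2 libraries, of 12 in the series, are compared here. The other libraries came from MDA-MB468 and HCC70 cells, a second triple-negative line, given vehicle, the RORγ antagonist XY018, atorvastatin or both, and those at 2.5 µM XY018 are placed beside the GSK805 values below. The vehicle library used with GSK805 is separate from the vehicle library of the XY018 experiment in the same line. The question of the comparison was which transcripts differ when RORγ is antagonised by a compound other than XY018.

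The values are FPKM, the fragments assigned to a gene scaled to the length of its transcripts in kilobases and to the mapped fragments of the library, with 1 value for each gene name and library. Genes were compared if their name also stood in the table of the XY018 experiment in MDA-MB468 and their FPKM was at least 1 in at least 1 of the 2 libraries. Of 17600 names shared by the tables, 12059 genes met this, out of 55744 names in the GSK805 table and 56364 in the whole series. The measure is the log2 ratio of GSK805 over vehicle, with 0.1 FPKM added to both, and a gene is called lower or higher from 1.5-fold on. There is 1 library per condition, so no test was possible, no p-value is given, and every difference below is a difference between these 2 libraries with no replicate check. The spacing of the lowest FPKM values put the depth near 8370000 fragments for vehicle and 8680000 for GSK805. From these depths a 95% Clopper-Pearson interval was made for each log2 ratio, which covers counting error only and is approximate, because it rests on an estimated depth and on the median length of the gene's annotated transcripts.

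RORγ is a ligand-dependent transcription factor best known for its part in Th17 lymphocytes and in the circadian output of liver and other tissues. Cholesterol is made from acetyl-CoA through mevalonate, squalene and lanosterol, and the genes of that route are activated together by SREBP2 when membrane sterol is low. SREBP1 drives the fatty acid genes, SCAP and the INSIG proteins hold both factors in the endoplasmic reticulum when sterol is plentiful, and LXR receptors activate sterol export when oxysterols accumulate.

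The markers of the line were present in both libraries, and of 13 compared breast epithelial and receptor markers 3 were lower and 3 higher by 1.5-fold. EGFR, whose gene is amplified in this line, stood at 617 FPKM with vehicle and 741 FPKM with GSK805, and the basal factor FOXC1 at 63.5 and 77.9 FPKM. The basal keratin KRT5 stood at 498 and 318 FPKM, and EPCAM at 153 and 138 FPKM. PGR, the progesterone receptor gene, was listed at 0 in both libraries, and ESR1 stood at 1.77 FPKM with vehicle and 5.67 FPKM with GSK805. Of 14 markers of immune, stromal, endothelial and liver cells, 3 passed the level filter. CD14 stood at 93.7 and 51.9 FPKM, CD68 at 5.54 and 12.4 FPKM, and COL1A1 at 10.4 and 17.2 FPKM, with vehicle and GSK805. The part of these genes in the results below was not tested. The T-cell and fibroblast markers CD3E, DCN and LUM were listed at 0 in both, and the leukocyte marker PTPRC was at 0 with vehicle and 0.0259 FPKM with GSK805.

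With GSK805, 1523 genes (12.6%) were lower and 1628 (13.5%) were higher by 1.5-fold or more, and the remaining 8908 were neither. The median log2 ratio was -0.0043 with quartiles of -0.33 and 0.33. At 2-fold the counts were 569 lower and 646 higher, and at 4-fold they were 123 and 115. The counting interval lay wholly below 0 for 1209 of the lower genes and wholly above 0 for 1255 of the higher genes. The balance between the directions went with the level of the gene. Among 1239 genes with a mean of 100 FPKM or more, 153 (12.3%) were lower and 49 (3.95%) were higher. Among 1042 genes below a mean of 2 FPKM, 27.1% were lower and 33.6% were higher. The latter shares are partly set by the level filter, since a gene with a mean below 1 FPKM entered only through its higher library. From a mean of 2 to 5 FPKM, 16.1% were lower and 24.8% higher. The scale also moved the split. For the 78 cytosolic ribosomal protein genes the median was 0.23, with 76 above 0, and when the GSK805 library was rescaled so that this median was 0, 2898 genes were lower and 950 higher. Every list count that follows is to be read beside the 12.6% lower and 13.5% higher over all genes compared. Where a value is given against the other vehicle, the GSK805 library was set against the vehicle library of the XY018 experiment, from a separately normalised table, and rescaled to a median of 0, and of 157 named genes past 1.5-fold that had a value there 138 kept their sign and 19 did not. Among these 19 were KRT5, at 0.92 against the other vehicle, CD14, at 0.96, and LRRC14, at 0.19. Both ratios share the GSK805 library and the 157 genes were picked as past 1.5-fold here, so a kept sign is partly built in. For the ribosomal protein genes the median against the other vehicle was -0.03.

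**Figure D1:**
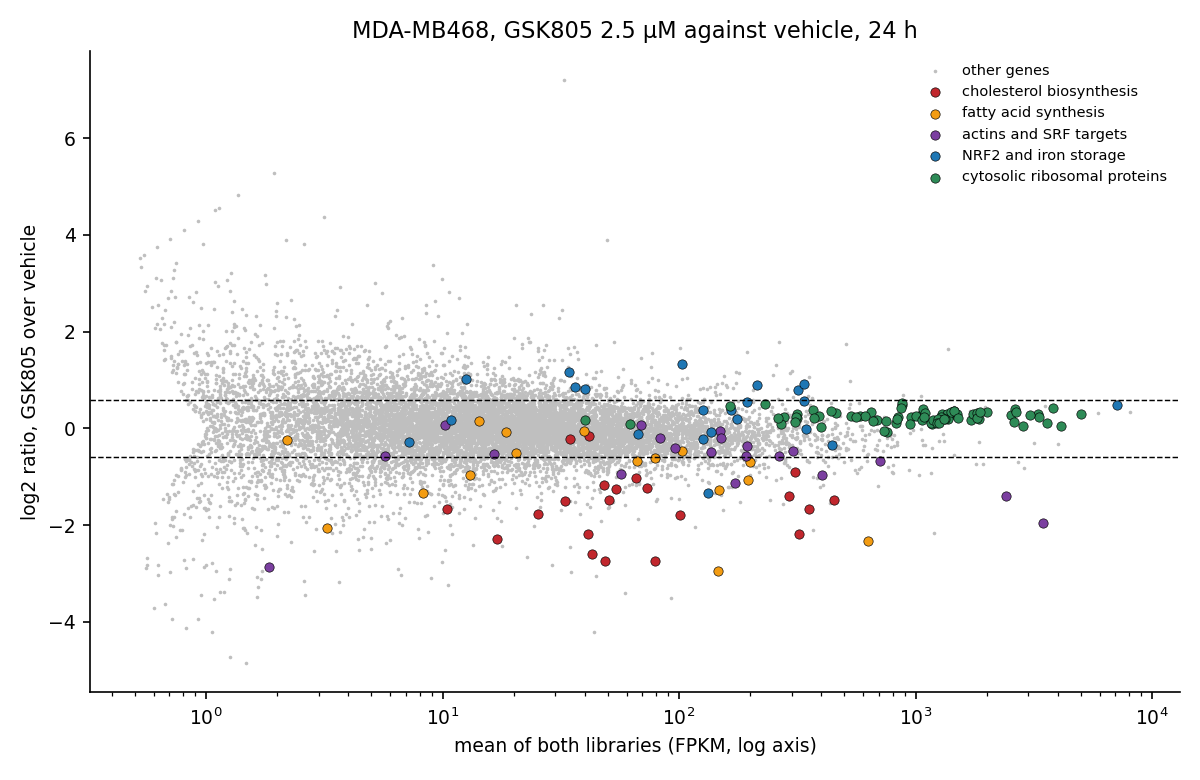
Each point is a gene, with its mean FPKM over the vehicle and GSK805 libraries on a log axis and its log2 ratio of GSK805 over vehicle on the other axis. Dashed lines mark 1.5-fold. The spread widens towards low FPKM, the cholesterol biosynthesis genes (red) reach -2.75, and the ribosomal protein genes (green) lie in a narrow band with a median of 0.23. Genes listed at 0 in 1 library are not drawn.

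Cholesterol biosynthesis was the gene list with the lowest median of the 37 described. Of 21 enzymes from acetyl-CoA to cholesterol, 19 were lower by 1.5-fold or more and none was higher, against 12.6% lower among all genes compared. The median log2 ratio of the list was -1.50, against -0.0043 over all genes, and all 21 members lay below 0, between -2.75 and -0.15. The counting interval lay below 0 for 19 of them. Summed over the list, the level was 3697 FPKM with vehicle and 1292 FPKM with GSK805. The list was chosen with earlier results of these data known, so the counts are a description.

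The 3 lowest ratios were those of HMGCS1, ACAT2 and IDI1, which act before squalene. HMGCS1, which makes HMG-CoA (GRCh37 chr5:43287572-43313614), stood at 138 FPKM with vehicle and 20.5 FPKM with GSK805, a log2 ratio of -2.75 with a counting interval of -3.09 to -2.43. ACAT2, the cytosolic thiolase that makes acetoacetyl-CoA (chr6:160183077-160200144), stood at 84.8 and 12.6 FPKM, a log2 ratio of -2.74. IDI1, which isomerises isopentenyl diphosphate (chr10:1085092-1095059), stood at 73.7 and 12.1 FPKM (-2.60, interval -2.82 to -2.42).

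The kinases and the decarboxylase of the mevalonate branch had unequal ratios. MVK, mevalonate kinase, was at 28.4 FPKM with vehicle and 5.75 FPKM with GSK805 (-2.28). MVD, the decarboxylase, was at 423 and 161 FPKM (-1.39). PMVK, the phosphomevalonate kinase between them, was at 37.2 and 32.2 FPKM, a log2 ratio of -0.21 whose interval of -0.48 to 0.06 includes 0. GGPS1, which leads away from sterols to geranylgeranyl diphosphate, was the other member short of 1.5-fold, at 43.9 and 39.5 FPKM (-0.15, interval -0.35 to 0.04).

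Among the later enzymes, DHCR7, which makes cholesterol from 7-dehydrocholesterol (chr11:71139239-71163914), stood at 528 FPKM with vehicle and 117 FPKM with GSK805 (-2.17, interval -2.24 to -2.11). SQLE, the squalene epoxidase, stood at 67.3 and 14.8 FPKM (-2.18), and CYP51A1, the lanosterol demethylase, at 39.3 and 11.4 FPKM (-1.77). FDFT1, the squalene synthase and the most abundant member with vehicle, stood at 664 and 237 FPKM (-1.49). EBP, FDPS, HSD17B7, TM7SF2, LSS, MSMO1, NSDHL and SC5D were lower too and lay between -1.79 for EBP and -1.03 for SC5D.

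**Figure D2:**
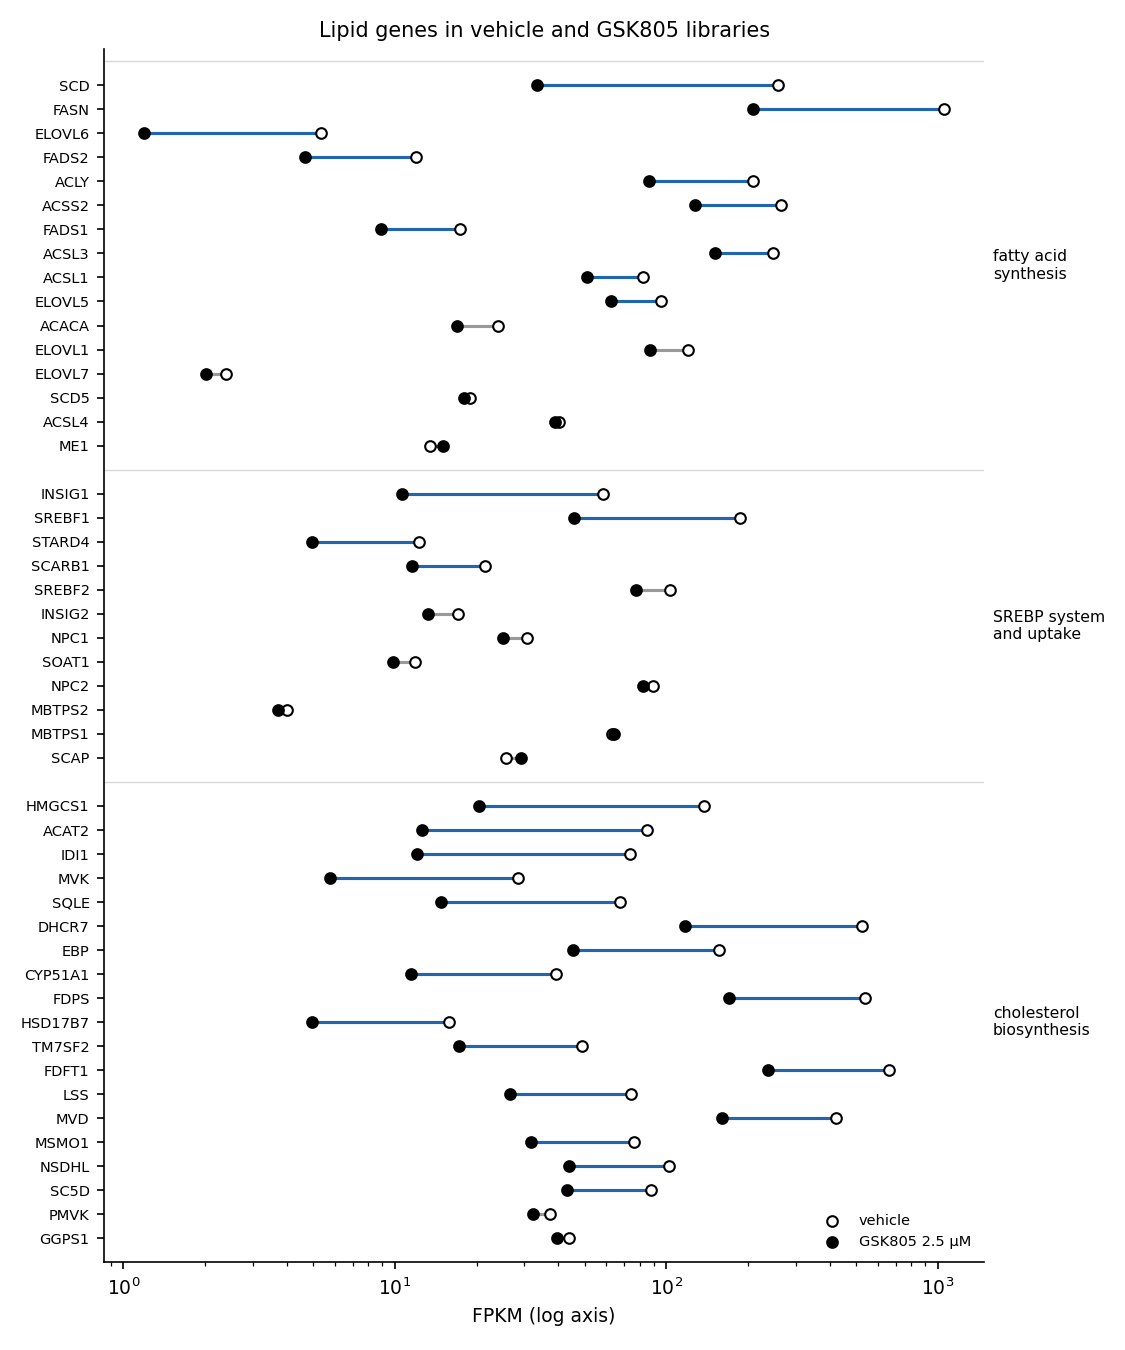
FPKM on a log axis of the compared members of 3 lipid gene lists, apart from a few that are not reported here, with an open circle for vehicle and a filled circle for GSK805 at 2.5 µM, 1 library each. Blue lines join genes lower by 1.5-fold or more and grey lines those short of it. In the cholesterol list 17 of 19 lines drawn are blue, in the SREBP list 4 of 12 and in the fatty acid list 10 of 16, and no line runs to a 1.5-fold higher value.

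The regulators split in the same libraries. SREBF2, which encodes SREBP2, stood at 103 FPKM with vehicle and 77.4 FPKM with GSK805 (-0.41, interval -0.60 to -0.22) and was short of 1.5-fold. SREBF1, which encodes SREBP1 (chr17:17713713-17740316), stood at 188 and 45.6 FPKM (-2.04, interval -2.28 to -1.82). The vehicle library of the XY018 experiment, normalised separately, had SREBF1 at 41.4 FPKM and SREBF2 at 123 FPKM. Against that other vehicle the ratio of SREBF1 was -0.44, and SREBF2 stood higher in that vehicle than in the vehicle here. Both the split and SREBF2 being short of 1.5-fold therefore rest on the vehicle library used. INSIG1, a sterol sensor that is itself an SREBP target, was at 58.6 and 10.6 FPKM (-2.45), while INSIG2 was at 17.1 and 13.2 FPKM (-0.37). SCAP and the processing protease MBTPS1 were at 25.8 and 63.2 FPKM with vehicle and 29.3 and 64.2 FPKM with GSK805. Of the 14 members, 6 were lower and none higher, with a median of -0.39.

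Fatty acid synthesis followed with 10 of 16 members lower, none higher and a median of -0.69. SCD, the desaturase that makes oleate, stood at 259 FPKM with vehicle and 33.4 FPKM with GSK805, a log2 ratio of -2.95 (-3.03 to -2.87). FASN, the fatty acid synthase, stood at 1055 and 209 FPKM (-2.33). ACLY, which makes cytosolic acetyl-CoA, stood at 208 and 86.7 FPKM (-1.26). ACACA, the acetyl-CoA carboxylase, and ME1, the malic enzyme, had ratios of -0.50 and 0.16 and were not called. In the list of 16 fatty acid oxidation and lipid droplet genes the median was -0.04, with 1 lower and 1 higher. The higher member passed the level filter through the GSK805 library alone. The lower member, ANGPTL4, had a ratio of 2.52 against the vehicle of the XY018 experiment.

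No compared LXR target was higher by 1.5-fold, and 2 of the 6 genes of the LXR list were lower. ABCA1, the main cholesterol exporter, stood at 0.139 FPKM with vehicle and 0.379 FPKM with GSK805 and was under the level filter. ABCG1 stood at 2.16 and 0.857 FPKM (-1.24, interval -2.11 to -0.54), and MYLIP, an LXR-induced ubiquitin ligase, at 13.2 and 6.598 FPKM (-0.99). The LXR receptors themselves, NR1H2 and NR1H3, had ratios of -0.05 and 0.20. The list median of -0.26 became 0.10 when the level filter was dropped.

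To show what the promoters of list members hold, the 250 bases before the start site were taken from RefSeq and searched on both strands. They are on GRCh38.p14, a later build than the GRCh37 of the FPKM values. Each list share is over all compared members with a promoter entry, whether or not they were past 1.5-fold. The motifs were chosen after the list results were known. CCAAT, the box bound by NF-Y, stood in 12 of 16 cholesterol promoters with an entry (75%), against 33% of all 27305 promoters, and it was also above that share in the DNA replication (62.5%), actin and SRF (56.2%), hypoxia (54.5%), NRF2 (50%), fatty acid (46.7%), stress response (46.7%) and SREBP (45.5%) lists, though not in glycolysis (25%). The E2F letters TTTNNCGC stood in 15 of 32 DNA replication promoters (46.9%), against 5.93% of all. The CArG box of SRF stood in 5 of 16 promoters of actins and SRF targets (31.2%), against 1.14% of all. The hypoxia letters ACGTG stood in 5 of 11 promoters of hypoxia-induced genes (45.5%), against 18.7% of all. They also stood in 36.4% of SREBP, 35% of glycolysis and 31.2% of DNA replication promoters, and in 20% or less of the other lists searched. AGGTCA, the core that ROR receptors bind, and the sterol letters TCACNCCAC stood in 0 of 16 cholesterol promoters, against 12.1% and 0.875% of all promoters, which says only that these letters are not in this window. The antioxidant letters TGACNNNGC stood in 3 of 16 promoters of the NRF2 list (18.8%), against 11% of all. Their share was also 18.8% in DNA replication, 18.2% in SREBP, 15% in glycolysis and 13.3% in stress response promoters, and 6.67% or less in the other lists searched. A match is a description of the sequence and not a bound site. The SRF, hypoxia and NRF2 lists were made of genes known for that regulation. An excess of the matching letters in them therefore partly follows from the choice of list and is no result about GSK805. Below is 1 promoter per motif, from a gene with a large ratio, on the gene's strand with the match in capitals. In HMGCS1 the 2 matches are on the opposite strand and read ATTGG, and in GINS2 and CA9 the matches are also the reverse complement of the letters searched.
HMGCS1, chr5:43313413-43313662, minus strand: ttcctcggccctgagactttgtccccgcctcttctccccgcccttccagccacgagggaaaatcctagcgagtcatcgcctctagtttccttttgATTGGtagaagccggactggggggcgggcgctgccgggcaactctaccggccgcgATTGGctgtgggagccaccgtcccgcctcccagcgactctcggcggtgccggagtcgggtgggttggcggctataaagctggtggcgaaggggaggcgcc
GINS2, chr16:85688955-85689204, minus strand: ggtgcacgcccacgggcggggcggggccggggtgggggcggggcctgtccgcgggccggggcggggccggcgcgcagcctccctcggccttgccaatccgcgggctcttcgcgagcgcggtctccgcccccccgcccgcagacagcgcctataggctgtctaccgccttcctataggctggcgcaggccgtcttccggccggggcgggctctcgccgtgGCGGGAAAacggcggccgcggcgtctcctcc
ACTG1, chr17:81512800-81513049, minus strand: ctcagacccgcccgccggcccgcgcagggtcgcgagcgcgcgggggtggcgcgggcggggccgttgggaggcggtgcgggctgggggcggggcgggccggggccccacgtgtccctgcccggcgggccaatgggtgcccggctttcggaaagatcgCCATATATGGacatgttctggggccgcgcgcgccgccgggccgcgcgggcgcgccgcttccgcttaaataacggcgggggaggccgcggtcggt
CA9, chr9:35673678-35673927, plus strand: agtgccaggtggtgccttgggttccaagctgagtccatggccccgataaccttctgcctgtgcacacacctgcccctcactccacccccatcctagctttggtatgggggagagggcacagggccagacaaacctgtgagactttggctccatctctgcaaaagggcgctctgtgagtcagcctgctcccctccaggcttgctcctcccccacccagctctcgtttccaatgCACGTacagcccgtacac

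In the list of ROR receptors and their coregulators, the receptors RORA and RORB were at or under 0.184 FPKM in both libraries. None of the 9 compared coactivators and corepressors was past 1.5-fold. In the circadian clock list, 4 of 15 genes were higher and 1 was lower, with a median of 0.04 that was 0.47 against the other vehicle and -0.20 after rescaling to the ribosomal protein genes. NR1D1, which encodes the ROR-competing repressor REV-ERBα, stood at 7.296 and 17.5 FPKM (1.25), NFIL3 at 12.4 and 23.2 FPKM (0.89), and the activator ARNTL at 27.3 and 17.96 FPKM (-0.60), whose ratio was 0.84 against the other vehicle.

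Genes of DNA replication were lower as a group. Of 37 members, 20 were lower and 2 higher, against 12.6% and 13.5% of all genes, with a median of -0.66. MCM10, which helps to start the replication fork, stood at 9.71 FPKM with vehicle and 1.79 FPKM with GSK805 (-2.38, interval -3.51 to -1.48). GINS2, a subunit of the replicative helicase whose promoter is printed above, stood at 23.5 and 9.73 FPKM (-1.27). PCNA, the sliding clamp, stood at 227 and 98.4 FPKM (-1.20, interval -1.32 to -1.10). E2F1, the transcription factor of the S-phase genes, stood at 22.6 and 10.4 FPKM (-1.11). The 2 higher members were PRIM1 (1.06), a primase subunit, and POLE2 (0.68), a polymerase subunit. In mitosis and spindle 9 of 32 genes were lower and none higher, with a median of -0.47 that was -1.22 against the other vehicle, and the proliferation marker MKI67 stood at 30.9 and 13.97 FPKM (-1.14). Among G1 regulators 2 of 19 were lower and 4 higher, and MYC was among the higher, at 90.8 and 162 FPKM (0.83).

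Glycolysis had 12 of 22 members lower, 1 higher and a median of -0.63. PGK1, phosphoglycerate kinase, stood at 513 FPKM with vehicle and 252 FPKM with GSK805 (-1.02). SLC16A3, the lactate exporter, stood at 64.7 and 26.98 FPKM (-1.26), and the pyruvate kinase gene PKM at 592 and 312 FPKM (-0.92). PFKM, a phosphofructokinase, was the higher member (0.90). Against the other vehicle the list median was -0.23, and the ratios were 0.16 for SLC16A3, -0.038 for PGK1 and -0.99 for PKM. Of 15 genes induced by hypoxia 6 were lower and none higher, with a median of -0.38. CA9, the carbonic anhydrase used as a hypoxia marker, stood at 38.97 and 9.53 FPKM (-2.02), and ADM, which encodes adrenomedullin, at 13.3 and 2.69 FPKM (-2.26). Against the other vehicle this list median was 0.09 and the ratio of CA9 0.19, so their direction rests on the vehicle library used.

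The nuclear-encoded respiratory chain had 13 of 50 members lower and none higher, with a median of -0.44 and 48 members below 0. NDUFB5, a complex I subunit, stood at 147 and 53.5 FPKM (-1.45) and was the lowest, though against the other vehicle its ratio was 0.40 and the list median -0.27. Genes of the mitochondrial genome made up 51.5% of the summed FPKM with vehicle and 56.1% with GSK805, which is not a share of fragments. Scaling to length gives short tRNA genes much weight in this sum, with MT-TS1 alone at 539123 and 603526 FPKM. The 13 protein genes of the mitochondrial genome, which stand outside the compared names, had a median of 0.15 with none past 1.5-fold.

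ACTB had the largest difference in FPKM of all genes compared. ACTB, β-actin (chr7:5566040-5603533), stood at 5485 FPKM with vehicle and 1410.2 FPKM with GSK805, a log2 ratio of -1.96 (-1.99 to -1.93). ACTG1, γ-actin, stood at 3493 and 1325 FPKM (-1.40). TPM1, a tropomyosin, stood at 236 and 108 FPKM (-1.12). Of 20 actins and SRF targets 7 were lower and none higher, with a median of -0.54. The YAP list had 6 of 15 lower, 1 higher and a median of -0.31, which was -1.05 against the other vehicle, and its matricellular targets CTGF and CYR61 stood at 17.6 and 23.2 FPKM with vehicle and 2.99 and 9.36 FPKM with GSK805. Keratins followed, with 8 of 14 lower, 1 higher and a median of -0.67. KRT8 stood at 967 and 422 FPKM (-1.20) and KRT81, a hair keratin, at 135 and 49.7 FPKM (-1.44), whereas KRT15 was higher (0.65). Of 20 epithelial adhesion genes 1 was lower, CDH3 (-0.60), and 1 was higher.

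Of 22 members of the NRF2 list 8 were higher, 1 was lower and 13 were neither, with a median of 0.43. GCLC and GCLM, the subunits of the enzyme that limits glutathione synthesis, stood at 58.3 and 21.2 FPKM with vehicle and 147 and 47.5 FPKM with GSK805, log2 ratios of 1.34 (1.22 to 1.46) and 1.16 (1.02 to 1.32). AKR1C1, AKR1C2 and AKR1C3, close paralogs that can share reads, had ratios of 0.90, 0.91 and 0.85. FTL, a ferritin subunit, was at 234 and 406 FPKM (0.80), and TFRC, the transferrin receptor that brings iron in, was the lower member, at 191 and 75.1 FPKM (-1.34, and 0.38 against the other vehicle). The canonical NRF2 targets NQO1 (0.54) and HMOX1 (0.18) were short of 1.5-fold.

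In the integrated stress response list 4 of 16 genes were higher and none lower, with a median of 0.34. DDIT3, which encodes CHOP, stood at 13.1 FPKM with vehicle and 40.7 FPKM with GSK805 (1.62, interval 1.27 to 2.01), and DDIT4, an inhibitor of mTORC1, at 678 and 1097 FPKM (0.70). GDF15, a stress cytokine, stood at 9.77 and 54.1 FPKM (2.46, and 0.50 against the other vehicle). Against the other vehicle the list median was -0.19, so the median's direction also rests on the vehicle library used. Among amino acid supply genes 5 of 21 were higher and none lower, with a median of 0.05, which included SLC3A2, a subunit of the cystine transporter, at 356 and 704 FPKM (0.98). That median was -0.51 against the other vehicle and -0.18 after rescaling to the ribosomal protein genes. The cytosolic aminoacyl-tRNA synthetases had 0 of 20 past 1.5-fold in either direction. In the endoplasmic reticulum chaperone list 4 of 20 were higher and 1 lower, with HERPUD1 (0.80), which serves protein disposal at that membrane, among the higher and DNAJB11 (-0.94), a co-chaperone, the lower, whose ratio was 1.30 against the other vehicle.

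Growth factor genes were higher in part. TGFA, an EGFR ligand, stood at 10.4 FPKM with vehicle and 36.4 FPKM with GSK805 (1.80, interval 1.37 to 2.28). The ligands EGF and AREG were at low level, at 1.22 and 0.688 FPKM with vehicle and 3.93 and 2.26 FPKM with GSK805. ERBB2, the HER2 receptor gene, was at 35.2 and 57.7 FPKM (0.71), and 4 of the 7 genes that passed the level filter were higher. AREG passed it through the GSK805 library alone. The median was 0.71 over these 7, 0.28 over 12 genes with no filter and 0.49 over the 4 at 5 FPKM or more. ETV5, a transcription factor induced by MAPK signalling, stood at 7.66 and 45.4 FPKM (2.55, interval 1.93 to 3.25). The early response genes FOS (1.40) and EGR1 (1.25) were higher too, and 5 of 25 of that list were higher and 2 lower. Its median of 0.14 was -0.09 after rescaling to the ribosomal protein genes and -0.42 against the other vehicle.

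**Figure D3:**
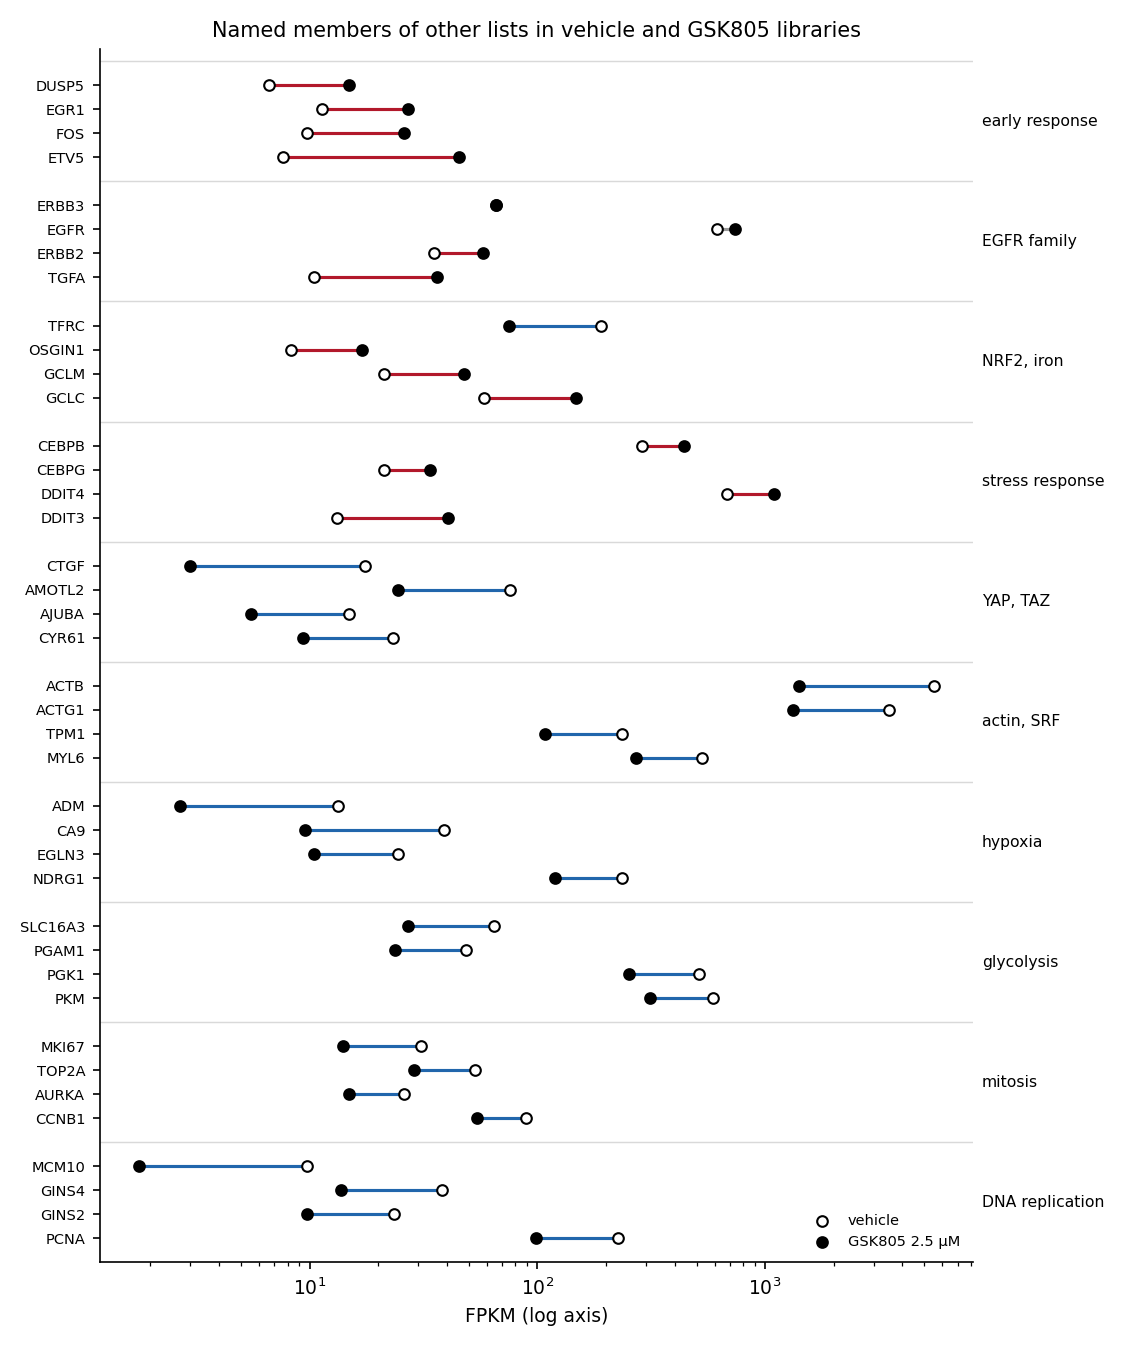
FPKM on a log axis of up to 4 named members of 10 other gene lists, with an open circle for vehicle and a filled circle for GSK805, 1 library each. Blue lines mark genes lower and red lines genes higher by 1.5-fold or more. The replication, mitosis, glycolysis, hypoxia, actin and YAP genes run to lower values and the stress response and early response genes to higher values, with TFRC as the exception in the NRF2 group and EGFR and ERBB3 short of 1.5-fold.

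The death and survival genes were mixed. Of 21 BCL2 family and death receptor genes 6 were higher and 2 lower, with a median of 0.27. BCL2L11, which encodes the death promoter BIM, stood at 15.8 and 27.7 FPKM (0.80), and BBC3, which encodes PUMA, at 10.8 and 17.6 FPKM (0.70). The survival gene BCL2L1 was lower, at 33.7 and 20.5 FPKM (-0.71), as was the death effector BAK1 (-0.63), while XIAP, a caspase inhibitor, was higher (0.70).

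Of the secreted and immune genes, SERPINA3, an acute phase protease inhibitor, stood at 234 and 788 FPKM (1.75), and the calgranulin gene S100A8 at 357 and 129 FPKM (-1.47, and 0.075 against the other vehicle). That list had 6 lower and 3 higher of 18 with a median of -0.43, which was 0.28 against the other vehicle. Interferon-stimulated genes had 4 lower and 3 higher of 28, with ISG15 (-0.78) lower and IRF7 (0.90) higher. Of 17 NF-κB targets 4 were lower, and of 16 genes of antigen presentation 2 were lower, of which the peptide transporter gene TAP2 had a ratio of -2.08. Of 14 Krüppel-like factors 3 were higher, with a median of 0.29, and KLF4 stood at 3.42 and 8.04 FPKM (1.21). Heat shock proteins had 1 lower and 1 higher of 20, lysosomal genes 2 and 3 of 26, and mesenchymal genes 2 and 3 of 9. Against the other vehicle the medians were -0.83 for interferon-stimulated genes (-0.14 here), -0.61 for NF-κB targets (-0.13 here), -2.73 for antigen presentation (-0.21 here) and 2.05 for mesenchymal genes (0.28 here). Histone genes were split, with 5 lower and 5 higher of 13, and these transcripts, many of which lack a poly(A) tail and have near-identical copies, are uncertain.

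**Figure D4:**
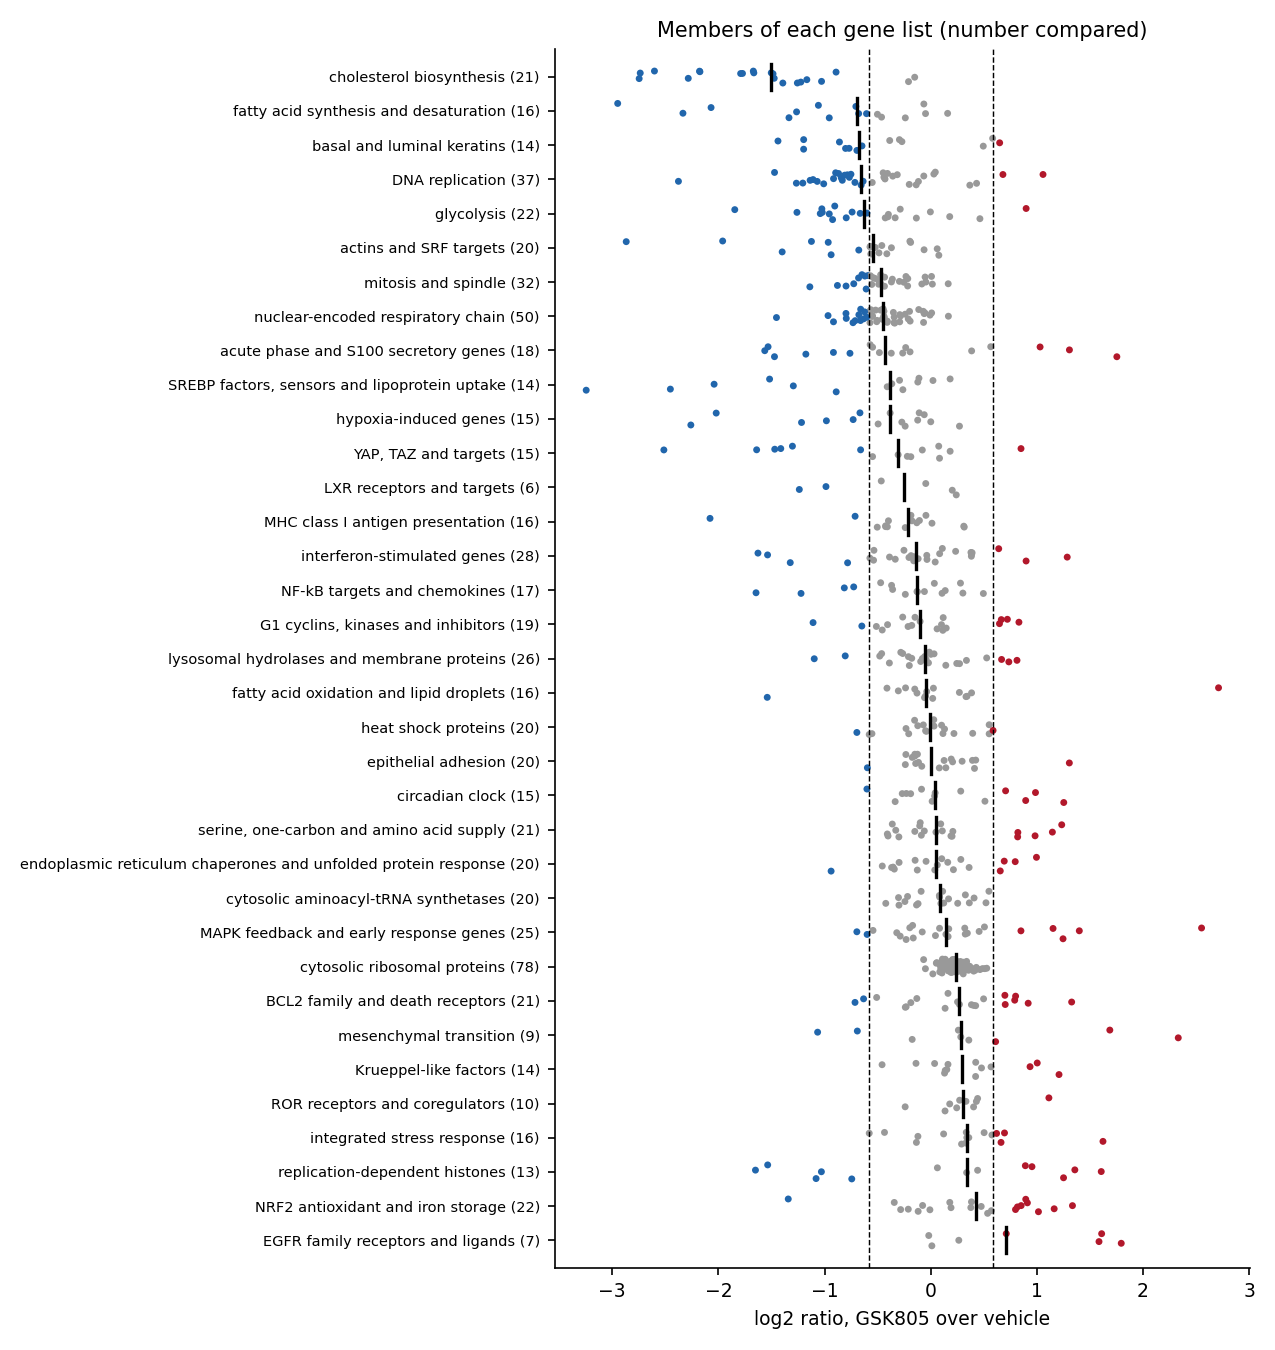
Each row is a gene list with the number of genes compared in brackets, each point a member's log2 ratio of GSK805 over vehicle, and the black bar the list median. Blue and red points are past 1.5-fold (dashed lines). Cholesterol biosynthesis, at a median of -1.50, stands farthest from 0, and among the lists drawn, which leave out the marker lists, the EGFR family, at 0.71 over 7 genes, is the farthest on the other side.

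Among genes of at least 10 FPKM in the library where they are higher, the 15 with the lowest and the 15 with the highest ratios hold entries of different kinds. FGFBP1, a carrier of fibroblast growth factors (chr4:15937200-15940363), stood at 83.2 FPKM with vehicle and 4.41 FPKM with GSK805, a log2 ratio of -4.21 (-4.71 to -3.80). AGR2, a secretory pathway disulfide isomerase, stood at 108 and 10.2 FPKM (-3.40), and IGFBP5, a binding protein of insulin-like growth factors, at 51.1 and 7.102 FPKM (-2.83). Also low with GSK805 were FGD3 (-3.08), COL9A2 (-3.02), the matrix genes TNC (-2.90) and EFEMP1 (-2.76), besides SCD. CYP1A1, the monooxygenase induced by the aryl hydrocarbon receptor, stood at 3.08 and 20.3 FPKM (2.69, interval 2.21 to 3.27). SVIL stood at 7.58 and 39.5 FPKM (2.37).

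Several of the most extreme ratios came from a value in 1 library that stood apart from the other MDA-MB468 libraries set beside it. PDCD11 stood at 169 FPKM with vehicle and 14.9 FPKM with GSK805, and at 13.7 and 12.02 FPKM with vehicle and XY018 in the other experiment, which was normalised separately. RNASEH2B (79.3 and 9.52 FPKM here, 8.96 and 7.3 FPKM there) and LRRC14 (61.9 and 7.84 FPKM here, 4.57 and 5.24 FPKM there) had the same form, with the vehicle value of this experiment standing apart. Among the highest ratios, ZNF888 was at 0.342 and 65.1 FPKM here and at 3.6 and 3.81 FPKM there, so that both of its values here stood apart. PLA2G2A, a secreted phospholipase, was at 2.57 and 18.7 FPKM here (2.82) and at 0.71 and 1.24 FPKM there, and CD37 at 2.01 and 17.95 FPKM here (3.10) and at 0.71 and 1.1 FPKM there. RAB28 and RAPGEF6 were at 34.97 and 14.4 FPKM with GSK805 and at 8.11 and 2.94 FPKM with XY018. TNRC18 was listed at 129.6 FPKM with vehicle and at 0 with GSK805, and GAGE12B at 29.94 and 0. In the other experiment TNRC18 stood at 54.3 FPKM with XY018. In all, 35 compared genes were listed at 0 in 1 library, 21 of them in the GSK805 library, and no fold is given for them.

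XY018 at 2.5 µM for 24 hours in the same line is the matched dose and time of the other RORγ antagonist. The compounds were profiled in separate experiments with separate vehicles and tables, with 1 library per condition, so their ratios are set side by side and the difference between them was not tested. Of 11322 genes compared in both, 1325 were lower with GSK805, of which 566 (42.7%) were also lower with XY018 and 80 (6.04%) were higher. Over all 11322 genes, 14.5% were lower and 13.4% higher with XY018. Of 1337 genes higher with GSK805, 461 (34.5%) were higher with XY018 and 85 (6.36%) were lower. In HCC70 cells, 87 of 1228 genes lower with GSK805 in MDA-MB468 were lower with XY018 (7.08%, against 2.56% of all genes there), and 59 of 1190 higher genes were higher (4.96%, against 2.05%). Opposite calls were above the shares over all genes too. Of the 1228, 50 were higher there (4.07%, against 2.05%), and of the 1190, 49 were lower (4.12%, against 2.56%).

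Lists with a median below 0 in both MDA-MB468 experiments included cholesterol biosynthesis, with medians of -1.50 for GSK805 and -0.83 for XY018, fatty acid synthesis (-0.69 and -0.53), keratins (-0.67 and -0.51), DNA replication (-0.66 and -0.74), glycolysis (-0.63 and -0.34), actins and SRF targets (-0.54 and -0.60), mitosis (-0.47 and -0.63), the respiratory chain (-0.44 and -0.21) and YAP targets (-0.31 and -0.78). HMGCS1 had a log2 ratio of -2.75 with GSK805, -1.87 with XY018 and -2.02 with XY018 in HCC70. ACTB had -1.96, -2.31 and -0.23, and FGFBP1 -4.21, -3.84 and -2.79, in the same order. In HCC70 the cholesterol list had a median of -1.46, and those of replication, mitosis and actins were 0.02, -0.10 and -0.03. GCLC was high with both compounds in MDA-MB468, at 1.34 with GSK805 and 1.71 with XY018, as were DDIT3 (1.62 and 2.30), GDF15 (2.46 and 3.76) and CYP1A1 (2.69 and 2.91). With XY018 in HCC70 these genes had -0.22 for GCLC, 0.88 for DDIT3, 1.81 for GDF15 and -1.89 for CYP1A1. Against the other vehicle their GSK805 ratios were 2.10, 0.64, 0.50 and 0.93, in the same order.

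For other genes the ratios lay far apart. SREBF1 had a log2 ratio of -2.04 with GSK805 and -0.03 with XY018, with 188 and 41.4 FPKM in the 2 vehicle libraries and 45.6 and 40.6 FPKM in the treated ones, from tables normalised separately, so that the treated values lay closer together than the vehicle values. SCD had -2.95 and -0.54. ABCG1 was lower with GSK805 (-1.24) and higher with XY018, at 2.24 in MDA-MB468 and 4.65 in HCC70. ETV5 (2.55 with GSK805 and -1.21 with XY018), EGR1 (1.25 and -1.26) and MYC (0.83 and -0.68) were higher with GSK805 and lower with XY018 in MDA-MB468. NDRG1, a hypoxia-induced gene, was lower with GSK805 (-0.98) and higher with XY018 (1.68), but its vehicle libraries stood at 236 and 22.3 FPKM and the treated ones at 119.5 and 71.8 FPKM. The endoplasmic reticulum chaperone list had medians of 0.05 and 0.59, the early response list 0.14 and -0.50, the acute phase list -0.43 and -1.31, and the hypoxia list -0.38 and 0.17, for GSK805 and XY018 in MDA-MB468.

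**Figure D5:**
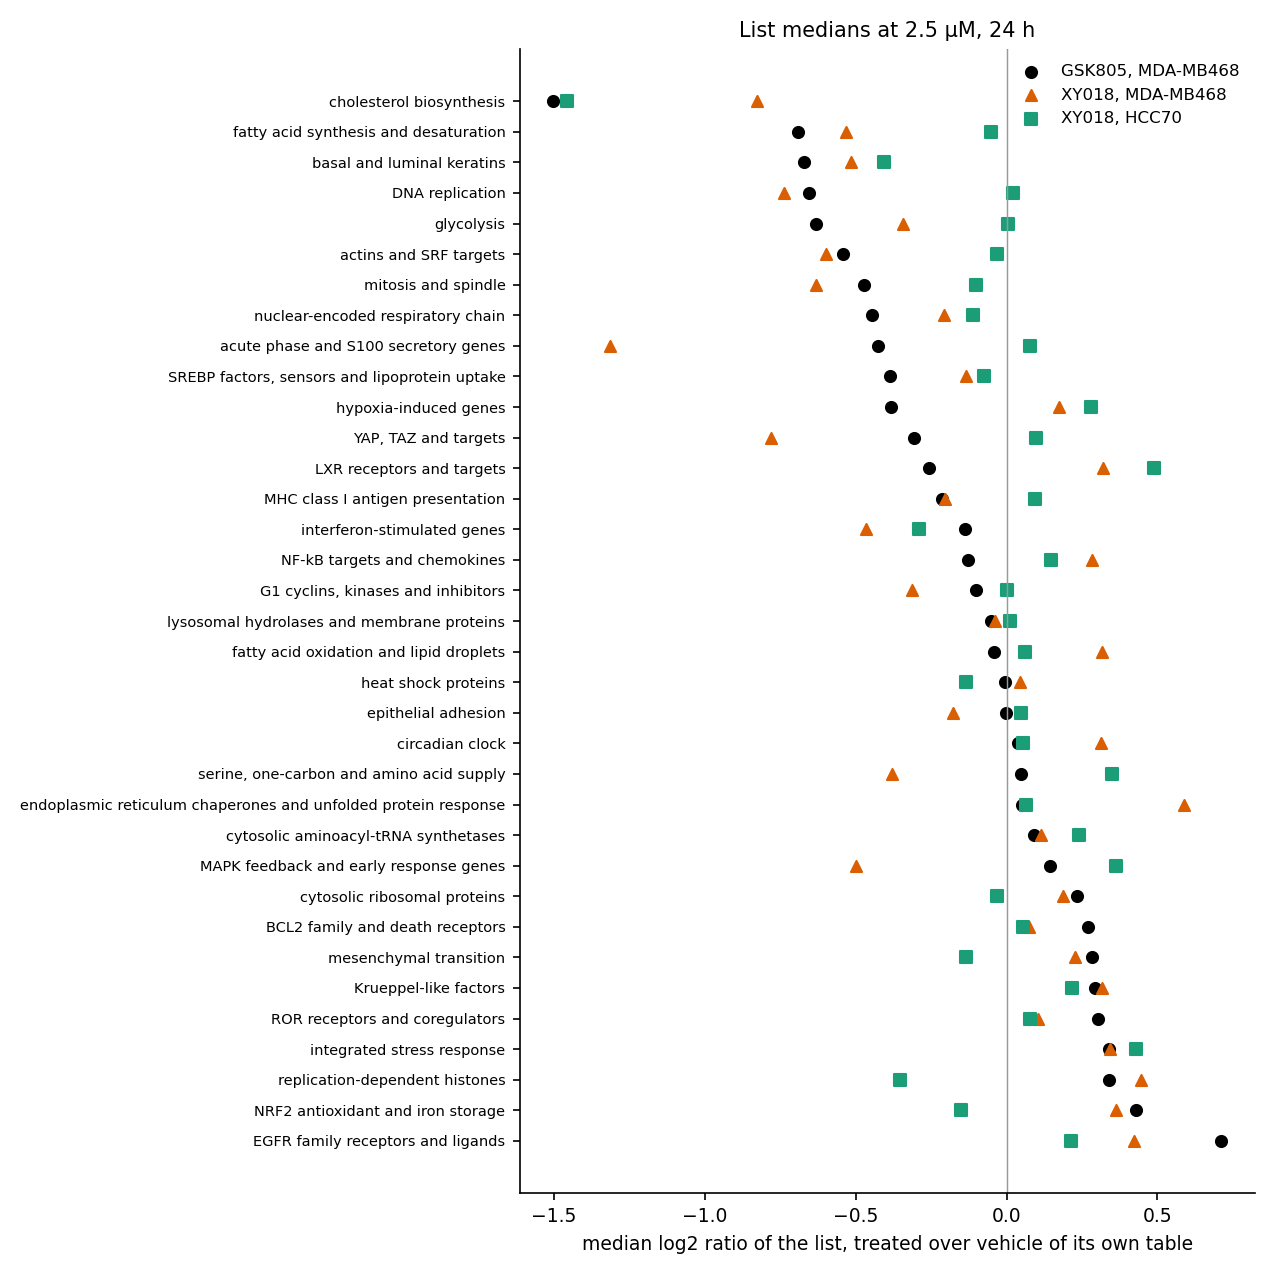
Median log2 ratio of each gene list, treated over vehicle of its own table, for GSK805 in MDA-MB468 (circles), XY018 in MDA-MB468 (triangles) and XY018 in HCC70 (squares), all at 2.5 µM for 24 hours with 1 library per condition. The cholesterol medians lie at -1.50, -0.83 and -1.46, whereas the hypoxia medians lie at -0.38, 0.17 and 0.28.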

How the data were processed

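MDA-MB468 cells received vehicle or GSK805 at 2.5 µM for 24 hours, and 1 RNA-seq library per condition was made by the authors with a TruSeq RNA kit. Per the labels, reads were processed with BWA, Bowtie and Cufflinks on GRCh37/hg19, whose versions and annotation are not given in the sources used here. The deposited values are FPKM per gene name, 1 column per library, and the authors normalised each of the 3 tables separately. The header names no unit, so FPKM was taken from the methods. Counts were not used here.

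Where a name had more than 1 entry (162 names), the entry with the largest summed FPKM was kept. Genes at 1 FPKM or more in at least 1 library were kept, 0.1 FPKM was added, and 1.5-fold was the threshold. Depth was estimated from the spacing of FPKM times transcript length below 6 fragments over single-transcript genes, where 79.6% and 80.3% of values came within 0.1 fragments of a whole number, and each gene's fragments from its median transcript length less 200 nt. Intervals, at 95% and for 11456 genes, cover counting error only. XY018 at 2.5 µM was compared within its own tables. The named genes were all cholesterol genes, up to 4 members of each other list with the largest absolute ratio at 5 FPKM or above, the 15 largest falls and rises at 10 FPKM or above, and marker and regulator genes. Some genes that this rule names are not reported here, though they stay in the counts and medians. Members of a list named beyond these were chosen after their values were seen. The members and lists were chosen with earlier results of these data known. Promoter sequences came from RefSeq on GRCh38.p14. Python 3.11.15, pandas 2.3.3, scipy 1.17.1 and numpy 2.4.6 were used, and the script was tested on simulated data. Alternatives were other pseudocounts, filters, scalings, thresholds, handling of repeated names and the vehicle of the other experiment.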

Additional observations from a re-analysis of the deposited data

Results flagged for a closer look

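Names that stand in the GSK805 table but not in the table of the XY018 experiment carry signal that the comparison does not use. Of 38144 such names, 7892 were at 1 FPKM or more in at least 1 library, and 1892 (24%) of these were higher and 1783 (22.6%) lower by 1.5-fold with GSK805. They held 72.4% of the summed FPKM with vehicle and 75% with GSK805, a sum in which short genes such as mitochondrial tRNAs weigh heavily. The mitochondrial ribosomal RNA MT-RNR2 was among them, at 5556 FPKM with vehicle and 11860.0 FPKM with GSK805 (log2 ratio 1.09), while MT-RNR1 stood at 1287 and 1085 FPKM. Of 22 mitochondrial tRNA genes, 7 were higher and 2 lower. The part of mitochondrial RNA in the other results was not tested.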

How the results depend on the processing

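No paired analysis was possible because there is 1 library per condition. Leaving out a library was not possible for the same reason. Against 1523 lower and 1628 higher genes, the counts were 569 and 646 at 2-fold, 3306 and 3520 over all names of the table, and 3077 and 3334 against the vehicle of the XY018 experiment rescaled to the same median. Dropping the filter gave 2501 higher genes and a filter at 5 FPKM gave 1024 higher genes. With 2 alternatives chosen after seeing the data, the counts were 925 lower and 884 higher for genes with at least 100 estimated fragments, and 2898 and 950 after rescaling to the ribosomal protein genes, which also moved the cholesterol median from -1.50 to -1.74. Rescaling to equal summed FPKM or to a median of 0 shifted every log2 ratio by 0.06 and 0.0043, and to the ribosomal genes by -0.23. Of 369 alternative list medians, 327 moved by less than the median half-width of their members' counting intervals and 42 by more. That half-width belongs to single genes and not to a median, so the 327 can overstate how stable the lists are. Of 1913 values of named genes, 1599 moved by less than their own counting error (0 where no interval could be made) and 295 by more. Of 157 named genes past 1.5-fold, 19 changed sign against the other vehicle, which for genes outside the cholesterol list was also chosen after seeing the data. Of these SC5D (0.47), ANGPTL4 (2.52), ARNTL (0.84), CA9 (0.19), CD14 (0.96), DNAJB11 (1.30), KRT5 (0.92), LRRC14 (0.19), NDRG1 (1.84), NDUFB5 (0.40), S100A8 (0.075), SLC16A3 (0.16), TFRC (0.38) and VIM (3.77) turned from lower to higher, and ALDH1L2 (-0.58), CEBPG (-0.0625), HSF2 (-0.71), MTHFD1L (-0.19) and OSGIN1 (-0.0030) from higher to lower. Of 21 cholesterol genes 19 were below 0 there and 16 past 1.5-fold lower, beside 3077 lower of all 12039 genes compared with that vehicle. The cause was not tested. Depth limits the low genes most, and 603 compared genes have no counting interval. The shares past 1.5-fold were highest below 2 FPKM, but the level filter has a part in these.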

Other observations

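Metallothionein genes, which encode small proteins that bind zinc and copper, were looked at after their values were seen. Of 6 compared, 4 were lower and none higher by 1.5-fold with GSK805, against 12.6% lower and 13.5% higher over all genes compared, and 1 of the 4, MT1H, was listed at 0 with GSK805 and at 1.84 FPKM with vehicle. MT2A stood at 1946 FPKM with vehicle and 437 FPKM with GSK805, a log2 ratio of -2.15 with a counting interval of -2.24 to -2.07. MT1E stood at 596 and 139.5 FPKM (-2.09) and MT1X at 546 and 171 FPKM (-1.67). MT1F, at 124 and 84.8 FPKM (-0.54), and MT1G, at 34.7 and 26.8 FPKM (-0.37), were short of 1.5-fold. These genes are close paralogs that can share reads. With XY018 in MDA-MB468 the log2 ratios were -0.66 for MT2A, -0.10 for MT1E, 0.52 for MT1X and 1.08 for MT1F. In HCC70 they were 0.23, 0.22, 0.23 and 0.25, and MT1G, which had no value with XY018 in MDA-MB468, was at -1.86. The MDA-MB468 vehicle library of that experiment, normalised separately, stood at 1129 FPKM for MT2A, 100 for MT1E and 150 for MT1X. For MT1E and MT1X the GSK805 values lay closer to it than the vehicle values here did, so their falls rest on the vehicle library used. The difference between the compounds was not tested. MTF1, the zinc-sensing activator of these genes, stood at 13.5 and 18.3 FPKM (0.44), and the zinc exporter gene SLC30A1 at 8.19 and 9.73 FPKM (0.25).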
